A study of Homo sapiens with 4 samples.

Results

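The genes described here encode amino acid transporters of 7 solute carrier families, SLC1, SLC3, SLC6, SLC7, SLC36, SLC38 and SLC43. The rule takes every gene whose symbol is one of these family names followed by A and a number, whatever its level, which gave 59 of the 23228 genes listed. The libraries came from MDA-MB-231, an established human cell line from a triple negative breast tumour, with mesenchymal-like growth. Cells with high aldehyde dehydrogenase activity had been sorted with the ALDEFLUOR kit, are called cancer stem cells (CSCs) in the labels, and were grown in MammoCult medium. Both groups carried a lentiviral vector for stable expression, of a control shRNA in 2 libraries and of a KDM1A shRNA in the other 2. KDM1A, also called LSD1, removes methyl groups from histone H3 lysine 4. The labels name 1 KDM1A shRNA and no rescue, so the loss of KDM1A and any side effect of that vector or of the separate stable cultures cannot be told apart. Whether the 2 libraries within each group are separate cultures is not stated, so the spread that the p-values rest on may be technical.

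Amino acids cross membranes mainly through carriers, and cells run several kinds in parallel. System A carriers such as SLC38A1 and SLC38A2 use the sodium gradient to load the cell with glutamine, alanine and other small neutral amino acids. Obligatory exchangers then trade those amino acids for others, for instance glutamine for leucine through the pair of SLC7A5 and SLC3A2, or glutamate for cystine through SLC7A11 and SLC3A2. SLC7A1 and SLC7A2 bring in arginine and lysine, SLC6 carriers move taurine, creatine, glycine, proline and neutral amino acids with sodium and chloride, and some SLC36 and SLC38 proteins work on lysosomes, where mTORC1 senses amino acids. When amino acids run short, the kinase EIF2AK4 and the factor ATF4 raise many carriers through a composite promoter element bound by CEBP and ATF proteins.

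The core of that element, TGATGNAA, was looked for on both strands in the 300 bases around each RefSeq start site (250 before and 50 after, build GRCh38.p14). RefSeq entries were at hand for 44 of the 59 genes, some with several starts, 66 promoters in all. The other 15 genes were not searched, among them SLC7A11, SLC7A2, SLC43A3, SLC6A6, SLC6A15, SLC38A3 and SLC7A3. The core was in 6 of them (9.09%), each in another gene, against 3.62% of all 35116 promoters of the same length. All of these genes but SLC7A1 also had other RefSeq starts, whose promoters lacked the core. These 6 windows are shown because the element is the best-known regulatory sequence of amino acid carriers. Each runs 5′ to 3′ along the gene's strand, and the capitals mark the core as read on that strand.
SLC38A1 (chr12:46266487-46266546, minus strand): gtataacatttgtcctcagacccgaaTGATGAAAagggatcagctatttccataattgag
SLC1A5 (chr19:46784878-46784937, minus strand): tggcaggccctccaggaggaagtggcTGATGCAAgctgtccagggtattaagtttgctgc
SLC1A3 (chr5:36596342-36596401, plus strand): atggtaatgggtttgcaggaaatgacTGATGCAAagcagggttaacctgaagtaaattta
SLC7A1 (chr13:29595648-29595707, minus strand): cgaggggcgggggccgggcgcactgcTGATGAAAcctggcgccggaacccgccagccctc
SLC1A4 (chr2:64989366-64989425, plus strand): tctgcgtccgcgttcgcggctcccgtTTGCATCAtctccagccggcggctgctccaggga
SLC3A2 (chr11:62881710-62881748, plus strand): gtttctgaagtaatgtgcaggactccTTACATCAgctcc
The core lies on the opposite strand in SLC1A4 and SLC3A2. A match is a description of these letters and not evidence of a working site. Of the 6 genes, 2 were called higher after KDM1A knockdown (SLC1A5 and SLC3A2), 2 lower (SLC38A1 and SLC1A3) and 2 neither way (SLC7A1 and SLC1A4). Among all tested genes 27.3% were called higher and 28.8% lower, so these few calls say nothing about the core.

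Levels are given as CPM, read counts divided by the library total and scaled up to a common size, after TMM scaling, which adjusts that total for differences in composition. Libraries held 23902900 to 26923678 reads in genes. The 59 transporter genes took 0.506% of them in each control library and 0.44% and 0.439% in KDM1A shRNA libraries 1 and 2. KDM1A itself had 174 and 167 CPM in the controls and 23.4 and 25.2 CPM in the KDM1A shRNA libraries, so both knockdown libraries matched their labels. The 7 markers of MDA-MB-231 examined, VIM and CD44 among them, were present in every library, with summed levels of 5430 and 5384 CPM in the controls and 6156 and 6198 CPM after knockdown, and 4 of the 7 were called higher and 3 lower. Of 5 genes known to be low in the line, ESR1 and PGR were under 1 CPM in every library, while ERBB2 (68.7 and 91.1 CPM as group means), EPCAM (18.9 and 25.2 CPM) and CDH1 (6.34 and 8.16 CPM) were detected and called higher after knockdown. The 5 summed to 94.8 and 93.8 CPM in the controls and 122.5 and 126.5 CPM after knockdown. One set of genes went against the line's identity. CDKN2A, CDKN2B and MTAP, which lie in a region that MDA-MB-231 is known to lack, summed to 23.2 and 25.4 CPM in the controls and 1.17 and 1.32 CPM in the KDM1A shRNA libraries. All 3 of 3 were called lower. Of the neuronal markers NEFL, NEFM and INA fell and TUBB3 rose, with summed levels of 73.5 and 72.3 CPM against 26.2 and 30.1 CPM. Markers of blood cells (5.19 and 6.47 against 3.05 and 3.45 CPM) and of endothelium (27.7 and 27.3 against 21.6 and 22.2 CPM) were lower in sum as well, led by CD14 and PECAM1, while fibroblast markers were higher in sum (20.1 and 21.5 against 45.6 and 44.1 CPM), with COL1A1 and PDGFRB called higher, PDGFRA lower (23.1% of control) and COL1A2 and COL3A1 too low to test. Several transporters described below moved as CDKN2A did. The part of RNA from other cells was not tested for these, nor for any other change given below, large or small. In bulk RNA, fewer cells that express a gene and less of its RNA per cell cannot be told apart.

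Among the 59 genes, 35 had enough reads to be tested with edgeR. Of the rest, 8 had 0 reads in every library, and none had more than 12 reads in any. After knockdown 15 of the 35 were called higher and 13 lower at an adjusted p under 0.05, where 27.3% and 28.8% of all 14012 tested genes were called in those directions (56.1% in either). By 2-fold or more, 4 were higher and 7 lower, against 3.07% and 8.54% of all tested genes. Control and knockdown libraries were fully separate in 32 of the 35, against 77.7% of all tested genes. The median log2 fold change of the 35 was 0.03, and that of all tested genes −0.00468. Of the 35, 5 reached the filter in the control libraries alone (SLC6A15, SLC6A16, SLC6A17, SLC7A3 and SLC38A3), so they could hardly have passed it without being lower. The counts are therefore descriptions of which carriers moved.

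**Figure D1:**
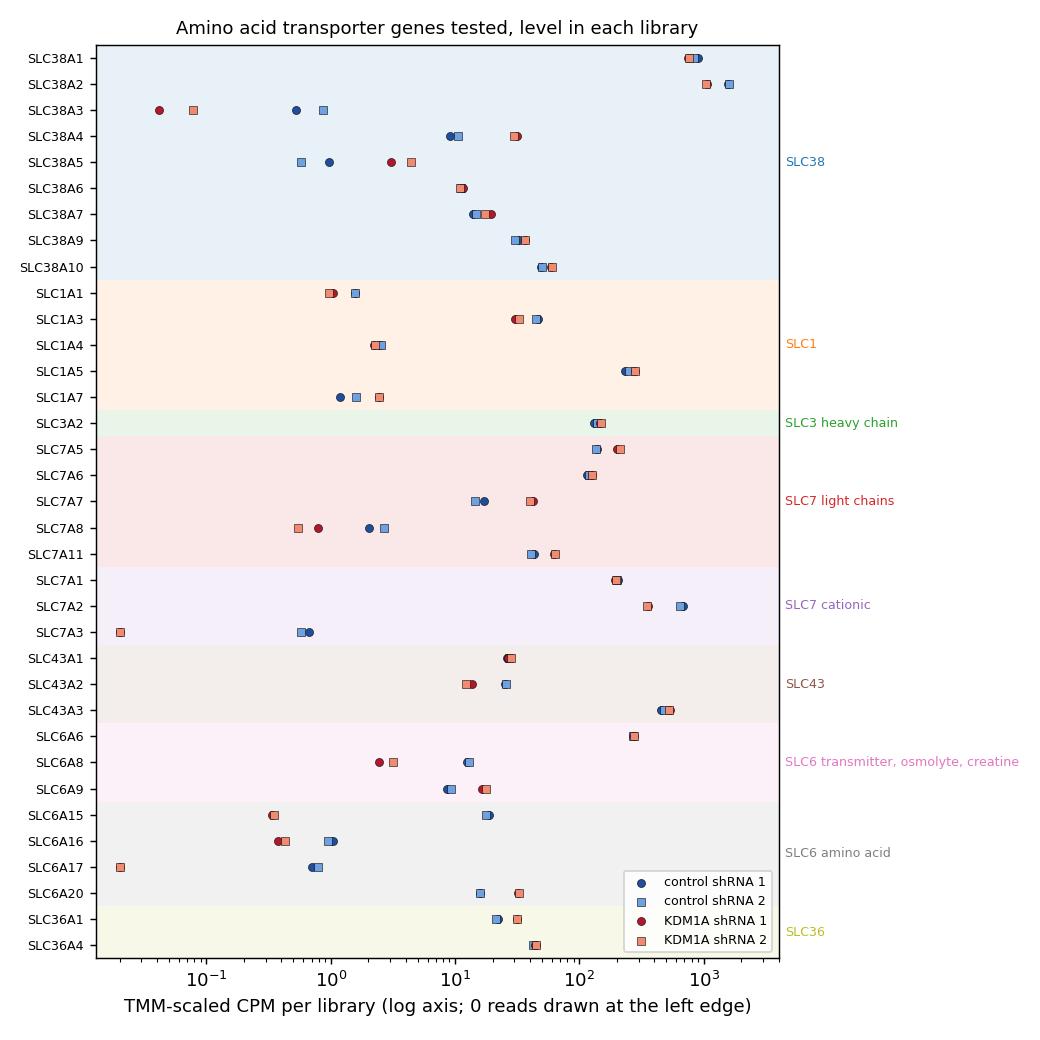
Level of each of the 35 tested transporter genes in each of the 4 libraries, in TMM-scaled CPM on a log axis, grouped by family or role. Points for SLC6A17 and SLC7A3 at the left edge stand for 0 reads in both KDM1A shRNA libraries, and the most abundant gene, SLC38A2, lies near 1574 CPM in the controls and 1055 CPM after knockdown.

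The sodium-coupled SLC38 family held 50.7% and 50.3% of the transporter CPM in the controls and 44.9% and 44.7% after knockdown, and its members moved apart. SLC38A2 and SLC38A1, the main system A carriers, fell, while SLC38A4 and SLC38A5 rose several-fold from low levels. SLC38A2 (GRCh37 chromosome 12, 46751971 to 46766556, minus strand) had 1563 and 1585 CPM in the controls and 1063 and 1047 CPM in the KDM1A shRNA libraries. Both knockdown libraries lay well below both controls, at 67.0% of the control mean (−0.58 on the log2 scale with SE 0.03, adjusted p 1.9e-09 by edgeR). SLC38A1, its neighbour at 46576846 to 46663800, had 897 and 839 CPM in the controls and 751 and 755 CPM after knockdown. That is a smaller fall (−0.20 on the log2 scale with SE 0.04, adjusted p 0.00029 by edgeR), and it too left no overlap between groups. The ratio of SLC38A2 to SLC38A1 reads within a library went from 1.74 and 1.89 to 1.42 and 1.39.

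SLC38A4, the third gene of this stretch of chromosome 12 (47158544 to 47226191), carries neutral and also cationic amino acids and is best known from liver. Its level was 9.11 and 10.6 CPM in the controls and 31.2 and 29.5 CPM after knockdown, a 3.09-fold rise (1.63 on the log2 scale with SE 0.09, adjusted p 1.6e-09 by edgeR). SLC38A2 and SLC38A4 thus lie 392 kb apart and went in opposite directions. Their promoters are printed whole, with each CpG in capitals, because they are neighbours with opposite changes. Neither holds TGATGNAA in the 300 bases searched, 250 before and 50 after the start. Sequence of these genes outside that window was not searched, so whether either has the core elsewhere was not tested. The SLC38A2 promoter has 33 CpG pairs in 300 bases and that of SLC38A4 has 16.
SLC38A2 (RefSeq, GRCh38.p14, chr12:46372724-46373023, minus strand): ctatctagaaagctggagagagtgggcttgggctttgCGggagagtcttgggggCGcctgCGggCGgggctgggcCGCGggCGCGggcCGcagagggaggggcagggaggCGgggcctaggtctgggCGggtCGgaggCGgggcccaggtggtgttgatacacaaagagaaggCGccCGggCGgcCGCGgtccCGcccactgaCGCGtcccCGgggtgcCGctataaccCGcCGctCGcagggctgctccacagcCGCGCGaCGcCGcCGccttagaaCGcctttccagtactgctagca
SLC38A4 (RefSeq, GRCh38.p14, chr12:46825948-46826247, minus strand): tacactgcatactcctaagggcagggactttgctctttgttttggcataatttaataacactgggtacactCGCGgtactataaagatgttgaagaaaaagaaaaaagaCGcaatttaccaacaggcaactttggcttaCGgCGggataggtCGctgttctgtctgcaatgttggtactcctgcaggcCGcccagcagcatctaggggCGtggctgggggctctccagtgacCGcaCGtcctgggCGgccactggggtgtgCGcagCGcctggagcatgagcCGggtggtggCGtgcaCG

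SLC38A5, a system N carrier of glutamine, histidine and serine, was scarce in the controls with 26 and 14 reads, and had 73 and 114 reads after knockdown. In CPM it rose from 0.774 ± 0.28 to 3.73 ± 0.97 (SD, 2 libraries each; 2.25 on the log2 scale with SE 0.28, adjusted p 8.3e-06 by edgeR). The other system N carrier measured, SLC38A3, went the other way, with 14 and 21 control reads against 1 and 2 after knockdown (−3.41 on the log2 scale with SE 0.64, adjusted p 0.00038 by edgeR). At 8.59% of control it moved with CDKN2A, which stood at 4.99%, and the part of RNA from other cells in this fall was not tested.
The lysosomal or intracellular members changed little. SLC38A9, which reports lysosomal arginine to mTORC1, rose from 31.4 ± 1.32 to 36.4 ± 0.30 CPM (0.21 on the log2 scale with SE 0.06, adjusted p 0.012 by edgeR), which did not pass when either KDM1A shRNA library 1 (adjusted p 0.091) or 2 (0.067) was dropped, nor in DESeq2 (0.063). SLC38A7, a lysosomal glutamine and asparagine exporter, was higher (0.35, SE 0.09), but not without KDM1A shRNA library 1 (adjusted p = 0.067). SLC38A10 was also higher (0.27, SE 0.05), and SLC38A6 had a log2 fold change of 0.00467 (SE 0.10, edgeR adjusted p = 0.97). SLC38A8 and SLC38A11 had 0 reads in every library. In all, 5 of the 9 SLC38 genes tested were called higher and 3 lower, beside 27.3% and 28.8% of all tested genes. Of those called lower, SLC38A3 had reached the filter through the controls alone.

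The SLC1 family splits into carriers of glutamate and exchangers of neutral amino acids, and both kinds held a gene at a sizeable level. SLC1A5 (also called ASCT2), the glutamine exchanger of many tumours, had 230.6 and 250.6 CPM in the controls and 281 and 280 CPM after knockdown. Both knockdown libraries were above both controls, by a small margin (0.22 on the log2 scale with SE 0.04, adjusted p 0.00046 by edgeR). SLC1A3, a glutamate and aspartate carrier best known from astrocytes, had 46.1 and 44.6 CPM in the controls and 30.4 and 32.4 CPM after knockdown. It fell to 69.2% of control (−0.53 on the log2 scale with SE 0.06, adjusted p 5.1e-06 by edgeR).
Other SLC1 genes were low. SLC1A7, a glutamate carrier known from retina, had 32 and 39 control reads against 59 and 63 after knockdown (0.81 on the log2 scale with SE 0.23, adjusted p 0.0076 by edgeR), a call lost without control library 1 (0.067) and in DESeq2 (0.074). SLC1A1, the glutamate and cysteine carrier EAAT3, had 42 and 38 reads against 25 and 25. Its call as lower sat on the threshold (−0.64 on the log2 scale with SE 0.26, adjusted p 0.0498 by edgeR), and of the 11 alternative fits that tested it, only that with upper quartile scaling kept the call (adjusted p from 0.042 to 0.27). SLC1A4, the serine and alanine exchanger, did not pass (−0.17 on the log2 scale with SE 0.20, adjusted p 0.49 by edgeR). SLC1A2 had at most 2 reads and SLC1A6 had 0.

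Heteromeric exchangers pair a light chain of SLC7, which carries the substrate, with a heavy chain of SLC3 that brings it to the cell surface. Of the light chains, SLC7A7, SLC7A5 and SLC7A11 rose and SLC7A8 fell, while the heavy chain SLC3A2 moved much less. SLC3A2, or 4F2hc, had 130 and 137 CPM in the controls and 145 and 150 CPM after knockdown (0.14 on the log2 scale with SE 0.04, adjusted p 0.012 by edgeR). Dropping either KDM1A shRNA library ended this call (adjusted p 0.060 without library 1 and 0.18 without library 2). SLC3A1, the heavy chain of the kidney cystine carrier, had 2 to 11 reads and was not tested.

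SLC7A5, or LAT1, imports leucine, tryptophan and other large neutral amino acids. It had 138 and 135 CPM in the controls and 201 and 210 CPM after knockdown, a 1.51-fold rise (0.59 on the log2 scale with SE 0.04, adjusted p 2.1e-08 by edgeR). SLC7A11, or xCT, which imports cystine for glutathione synthesis in exchange for glutamate, had 43.5 and 40.4 CPM against 62.4 and 63.4 CPM. Its rise was of the same size (149.9% of control, 0.58 on the log2 scale with SE 0.06, adjusted p 7.9e-07 by edgeR). SLC7A7, or y+LAT1, exports arginine and lysine in exchange for sodium and neutral amino acids, and is prominent in macrophages and gut epithelium. Its level of 17.1 and 14.6 CPM in the controls became 42.0 and 40.0 CPM after knockdown, 2.59-fold higher (1.37 on the log2 scale with SE 0.08, adjusted p 3.6e-09 by edgeR). For all 3 genes both knockdown libraries lay above both controls.

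SLC7A6, the paralog of SLC7A7 with the same kind of exchange, was abundant and nearly level, with 115 and 120 CPM in the controls and 127 and 125 CPM after knockdown (0.10 on the log2 scale with SE 0.04, adjusted p 0.062 by edgeR). It was called higher without control library 2 (adjusted p = 0.0051). Its exons overlap those of SLC7A6OS on the other strand, and whether the counting used strand is not stated in the labels. SLC7A11 likewise overlaps the antisense gene SLC7A11-AS1. SLC7A8, or LAT2, lies 296 kb from SLC7A7 on chromosome 14 and went the other way, with 54 and 65 control reads against 19 and 14 after knockdown (−1.81 on the log2 scale with SE 0.29, adjusted p 9.8e-05 by edgeR). SLC7A9, SLC7A10 and SLC7A13 had at most 5 reads in any library.

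Within a library, the reads of a light chain can be set against those of SLC3A2. SLC7A5 had 1.06 and 0.982 reads per SLC3A2 read in the controls and 1.38 and 1.40 after knockdown. For SLC7A11 the ratio was 0.334 and 0.294 against 0.430 and 0.422, and for SLC7A7 it was 0.132 and 0.106 against 0.290 and 0.266. The SLC7A6 ratio was 0.884 and 0.874 against 0.875 and 0.833. So 3 of the light chains compared here gained on the heavy chain in both knockdown libraries, and SLC7A6 did not. SLC7A8, which fell from 54 and 65 reads to 19 and 14 while SLC3A2 did not fall, was left out of these ratios. With 2 libraries on each side, 0.333 is the smallest two-sided p an exact permutation test allows, and these ratios were left untested.

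**Figure D2:**
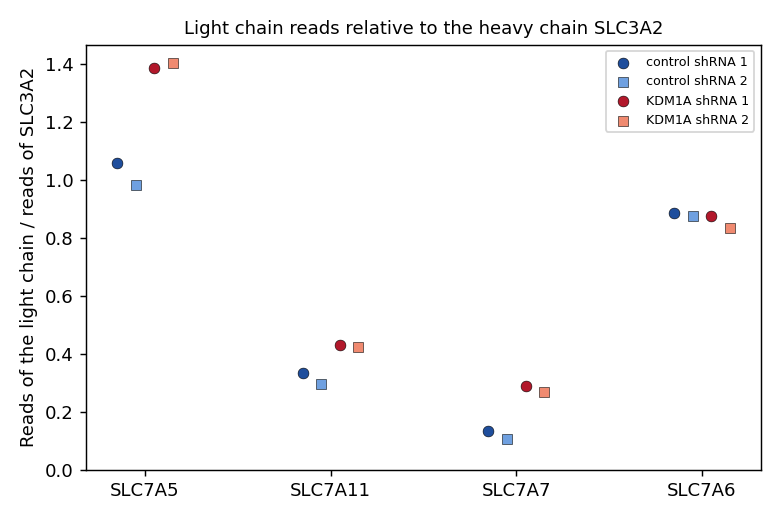
Reads of 4 SLC7 light chains divided by the reads of the heavy chain SLC3A2, 1 point per library, on a linear axis from 0. The KDM1A shRNA points lie above the control points for SLC7A5, SLC7A11 and SLC7A7, while those of SLC7A6 lie between 0.833 and 0.884 in all 4 libraries.

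Of the cationic amino acid transporters, SLC7A2 fell and SLC7A1 did not pass the test. SLC7A2, or CAT2, an arginine carrier that is inducible in many cells (GRCh37 chromosome 8, 17354597 to 17428082), had 676 and 643 CPM in the controls and 355 and 353 CPM after knockdown, 53.7% of control (−0.90 on the log2 scale with SE 0.04, adjusted p 6.6e-11 by edgeR). SLC7A1, or CAT1, the widely expressed arginine importer, had 204 and 199 CPM against 192 and 198 CPM (−0.05 on the log2 scale with SE 0.04, adjusted p 0.33 by edgeR). The ratio of SLC7A2 to SLC7A1 reads was 3.31 and 3.23 in the controls and 1.84 and 1.78 in the knockdown libraries. SLC7A2 still had more reads than SLC7A1 in every library.
SLC7A3, the brain and thymus member, had 18 and 14 reads in the controls and 0 in both KDM1A shRNA libraries. With a floor of 3 counts over the group it was at least 10.4-fold lower (adjusted p 7.4e-05 by edgeR). It moved with CDKN2A and MTAP, and the part of RNA from other cells was not tested. SLC7A4 had 0 to 8 reads and SLC7A14 had 0.

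Among the facilitative SLC43 carriers, SLC43A3 was among the most abundant of all members and SLC43A2 fell to 51.2% of its control level. SLC43A2, or LAT4, an exporter of branched-chain amino acids and phenylalanine, had 25.0 and 25.8 CPM in the controls and 13.7 and 12.2 CPM after knockdown (−0.97 on the log2 scale with SE 0.08, adjusted p 2.3e-07 by edgeR). Both knockdown libraries were far below both controls. SLC43A3 carries purine bases, so it belongs here by family and not by substrate. It had 454 and 476 CPM in the controls and 533 and 523 CPM after knockdown (0.18 on the log2 scale with SE 0.04, adjusted p 0.00061 by edgeR). SLC43A1, or LAT3, which lies 57.0 kb from SLC43A3 on chromosome 11, overlapped between groups (0.03 on the log2 scale with SE 0.07, adjusted p 0.70 by edgeR).

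Changes in the SLC6 family covered a wide range. Of 19 genes only 7 were tested, and their log2 fold changes ran from near-total loss to a 2-fold rise. SLC6A6, the taurine carrier that guards cell volume, was the most abundant with 271 and 269 CPM in the controls and 276 and 272 CPM after knockdown (0.02 on the log2 scale with SE 0.04, adjusted p 0.62 by edgeR). SLC6A8, the creatine carrier, had 331 and 312 control reads against 58 and 81 after knockdown, 22.05% of control (−2.17 on the log2 scale with SE 0.14, adjusted p 8.3e-09 by edgeR). SLC6A8 has a near-identical pseudogene copy, and reads aligned to several places were set aside, so its level is uncertain. GAMT, which makes creatine, rose (17.9 ± 0.51 to 30.1 ± 1.00 CPM; 0.75, SE 0.07).

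SLC6A9, or GlyT1, the glycine carrier, had 8.59 and 9.23 CPM in the controls and 16.3 and 17.8 CPM after knockdown (0.94 on the log2 scale with SE 0.10, adjusted p 1.4e-06 by edgeR). SLC6A20, a proline carrier also called SIT1, had 15.8 CPM in each control and 32.2 and 32.7 CPM after knockdown (1.04 on the log2 scale with SE 0.07, adjusted p 2.2e-08 by edgeR). Each of these 2 genes rose by a similar factor, with no overlap between groups.

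The remaining SLC6 genes tested all fell, and each had reached the filter through the controls alone. SLC6A15, a carrier of branched-chain amino acids and proline known from brain (GRCh37 chromosome 12, 85253270 to 85307408), had 500 and 428 control reads against 8 and 9 in the KDM1A shRNA libraries. That left 1.88% of its control level (−5.71 on the log2 scale with SE 0.18, adjusted p 5.0e-12 by edgeR). SLC6A17, a vesicular neutral amino acid carrier of neurons, had 19 reads in each control and 0 in both knockdown libraries, at least 12.3-fold lower with the floor of 3 counts (adjusted p 3.4e-05 by edgeR). SLC6A16, whose substrate is unsettled, had 28 and 23 reads against 9 and 11 (−1.30 on the log2 scale with SE 0.36, adjusted p 0.0061 by edgeR), a call lost in DESeq2 (0.086). Of the neuronal markers, NEFL stood at 0.461%, NEFM at 1.57%, INA at 2.89% and TUBB3 at 120% of control, and of the genes MDA-MB-231 lacks, CDKN2B stood at 1.70%, CDKN2A at 4.99% and MTAP at 5.65%. All of these but TUBB3 moved with the transporter falls, and the part of RNA from other cells was not tested. Of all tested genes 1.96% were called lower by 16-fold or more. The other 12 SLC6 genes, among them the carriers of GABA, noradrenaline, dopamine and serotonin, had at most 12 reads in any library.

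SLC36A1 carries small neutral amino acids together with protons, at the cell surface and on lysosomes. SLC36A1 had 21.99 and 21.15 CPM in the controls and 31.6 and 31.3 CPM after knockdown (0.54 on the log2 scale with SE 0.07, adjusted p 1.1e-05 by edgeR). SLC36A4 overlapped between groups (43.8 ± 1.82 and 44.7 ± 0.55 CPM; 0.03 on the log2 scale with SE 0.06, adjusted p 0.70 by edgeR). SLC36A2 and SLC36A3, beside SLC36A1 on chromosome 5, had at most 2 reads.

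**Figure D3:**
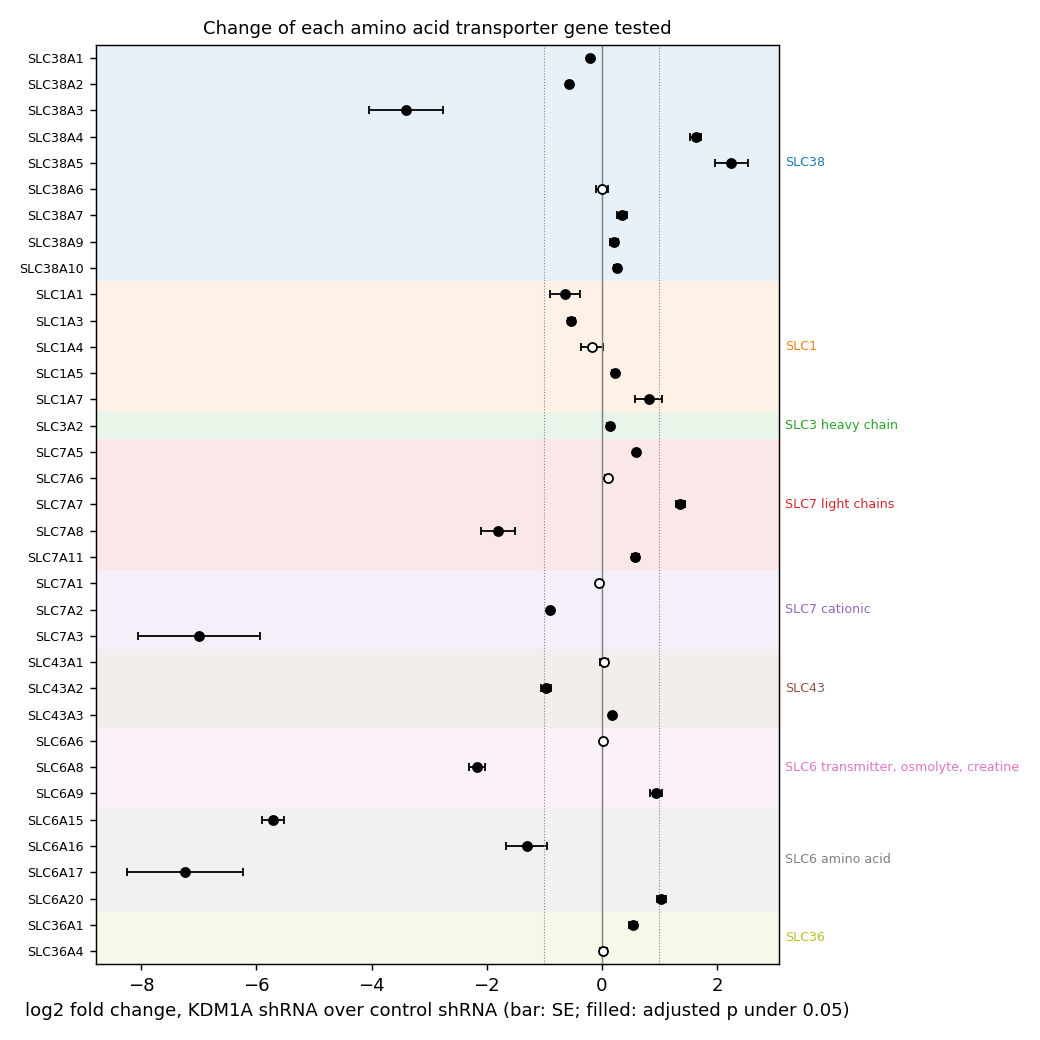
Log2 fold change (KDM1A shRNA over control shRNA, 2 libraries each) of the 35 tested transporter genes, with SE bars, filled points for an adjusted p under 0.05 and dotted lines at 2-fold. Values run from below −5 for SLC6A15, SLC6A17 and SLC7A3 to 2.25 for SLC38A5, and the fitted values of SLC6A17 and SLC7A3 rest on 0 reads after knockdown and are not bounds.

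To compare levels between genes, CPM was divided by the summed length of a gene's exons in kilobases (GENCODE 44 on GRCh37). In the controls SLC38A2 was first with 242 CPM per kb, followed by SLC43A3 (103), SLC38A1 (86.6), SLC7A2 (83.4) and SLC1A5 (72.2). SLC6A6 (32.7), SLC7A5 (28.6), SLC7A1 (26.2), SLC3A2 (20.9) and SLC7A6 (15.5) came next. The same top 4 stood in this order when only the canonical transcript's length was used (328, 178, 107 and 86.6 CPM per kb), but SLC3A2 then rose to 70.9 CPM per kb, above SLC6A6. With the canonical length SLC38A1 and SLC7A2 lay apart (107 and 86.6 CPM per kb). By summed exon length (86.6 and 83.4) they were closer to each other than the 2 control libraries of SLC38A1. After knockdown SLC38A2 remained first at 162 CPM per kb, while SLC7A2 went to 44.8 and SLC7A5 to 43.1, so that these 2 came to lie close together.

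The summed level of the 59 genes was 5088 and 5056 CPM in the controls and 4396 and 4386 CPM after knockdown, 0.866 of control. The decrease of the sum lay in 3 abundant genes. Without SLC38A1, SLC38A2 and SLC7A2, chosen after their values were seen, the other 56 summed to 1952 and 1989 CPM in the controls and to 2227 and 2231 CPM after knockdown. By role, SLC38 carriers went from 2577 and 2543 CPM to 1975 and 1961 CPM and cationic SLC7 carriers from 881 and 842 CPM to 548 and 551 CPM. Light chains of SLC7 went up from 316 and 313 CPM to 433 and 440 CPM. The share of light chains among all transporter reads was 6.20% and 6.18% in the controls and 9.85% and 10.02% after knockdown. These sums were not tested.

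**Figure D4:**
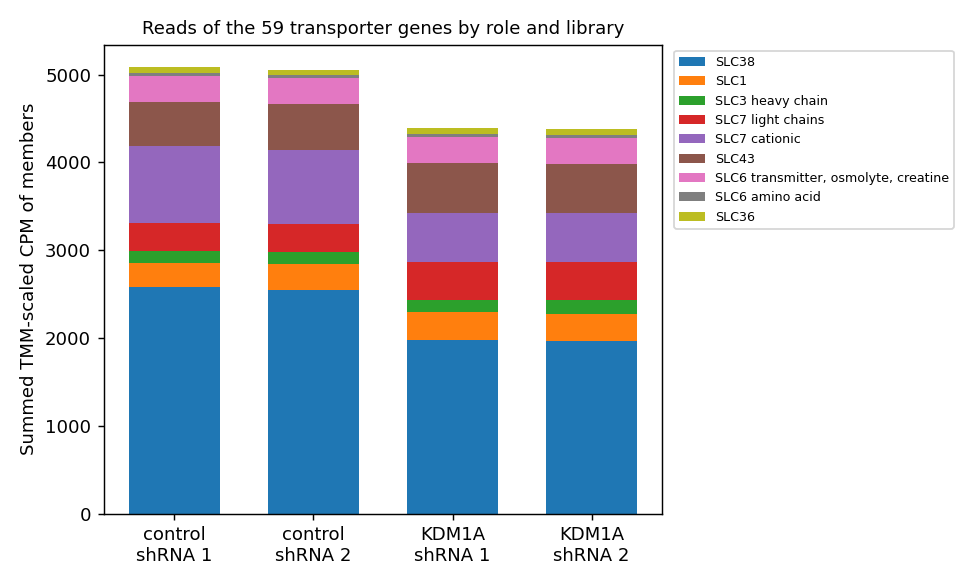
Summed TMM-scaled CPM of the 59 transporter genes in each library, stacked by family or role. The SLC38 and cationic SLC7 segments are shorter and the SLC7 light chain segment is taller in both KDM1A shRNA libraries, and the column height goes from 5088 and 5056 to 4396 and 4386 CPM.

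Other genes of amino acid handling were taken from 6 lists, set beside the 35 transporters as counts and medians. Carriers outside the 7 families were higher in 7 and lower in 5 of 15 tested (median log2 fold change 0.17), beside 27.3% and 28.8% of all tested genes. The mitochondrial aspartate and glutamate carrier SLC25A12 (0.41, SE 0.06), the branched-chain carrier SLC25A44 (0.38, SE 0.05), the lysosomal cystine exporter CTNS (0.49, SE 0.08) and SFXN3 of the mitochondrial serine carrier family (0.47, SE 0.04) rose. The 5 called lower are named after their values were seen. SLC16A10 fell most (−1.81, SE 0.32). SLC25A15 (−0.30, SE 0.07), SFXN1 (−0.28, SE 0.05), SLC15A4 (−0.26, SE 0.06) and SLC25A13 (−0.15, SE 0.05) fell less. SLC29A3 rose most (8.66 ± 0.47 to 20.05 ± 0.40 CPM) and is a lysosomal nucleoside carrier, so it does not do what the list's name says.

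Regulators of carrier transcription and turnover were lower in 11 and higher in 2 of 19 tested, with a median of −0.28, beside 28.8% and 27.3% of all tested genes. The 5 with the smallest p were all lower. They were HIF1A (−0.32, SE 0.03) and stress factors downstream of ATF4, namely ATF3 (20.04 ± 0.76 to 6.96 ± 1.13 CPM, −1.53, SE 0.11), DDIT3 (−1.10, SE 0.08), TRIB3 (−0.56, SE 0.05) and PPP1R15A (−0.61, SE 0.05). ATF4 itself (−0.41, SE 0.04) and the kinase SGK1 (−0.81, SE 0.13), named after their values were seen, also fell. Some genes that ATF4 is known to raise, picked after their values were seen, went both ways in these libraries. The balance of rises and falls over all such genes was not tested. Of those picked, SLC7A5 and SLC7A11 rose, while SLC38A2, asparagine synthetase ASNS (−0.43, SE 0.06) and the glutathione-degrading CHAC1 (−0.72, SE 0.17) fell.

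Amino acid sensing by mTORC1 had 8 higher and 11 lower among 38 tested (median 0.03), no larger a share in sum than the 56.1% called in either direction among all tested genes. RPTOR (0.32, SE 0.05) and the GATOR1 subunit DEPDC5 (0.57, SE 0.10) rose, while the Rag GTPase RRAGD (−0.69, SE 0.08), the GATOR2 subunit WDR59 (−0.46, SE 0.07) and the TSC complex partner TBC1D7 (−0.86, SE 0.09) fell. These genes do not share 1 direction of action on mTORC1.

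Enzymes of glutamine, glutamate, aspartate and proline were lower in 11 and higher in 5 of 19 tested (median −0.16), beside 28.8% and 27.3% of all tested genes. Glutamine synthetase, GLUL, fell from 471 ± 11.5 to 269 ± 7.55 CPM (−0.81 on the log2 scale with SE 0.04, adjusted p 2.8e-10 by edgeR), the same direction as the glutamine carriers SLC38A1 and SLC38A2 and opposite to SLC1A5. The transaminase GPT2 (−0.63, SE 0.07) and glutamate dehydrogenases GLUD1 (−0.50, SE 0.04) and GLUD2 (−0.53, SE 0.05) fell; GLUD1 and GLUD2 are near-identical, so the split of reads between them is uncertain. CAD, which uses glutamine to start pyrimidine synthesis, rose (0.46, SE 0.04).

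Of 14 enzymes of cystine and glutathione, 8 fell and 4 rose (median −0.32), beside 28.8% and 27.3% of all tested genes. While the cystine importer SLC7A11 rose, GCLC, the rate-limiting enzyme of glutathione synthesis, fell (190 ± 0.62 to 152 ± 0.079 CPM; −0.32, SE 0.04), as did GSR (−0.31, SE 0.04), GPX4 (−0.32, SE 0.04) and GGT7 (−1.32, SE 0.10). Named after their values were seen, GCLM, the partner subunit of GCLC (0.37, SE 0.05), glutathione synthetase GSS (0.20, SE 0.04) and GGT1 (1.02, SE 0.15) rose. CBS, which opens the route from homocysteine to cysteine, was nearly lost (20.2 ± 0.97 to 0.562 ± 0.027 CPM). Its fall is of the kind seen for CDKN2A and SLC6A15, and the part of RNA from other cells was not tested.

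Enzymes of branched-chain, aromatic and cationic amino acids were higher in 6 and lower in 6 of 15 tested (median 0.07), beside 27.3% and 28.8% of all tested genes. ASS1, of the route that rebuilds arginine from citrulline, fell (113 ± 4.18 to 69.1 ± 2.25 CPM, −0.71, SE 0.05), as did the arginine carrier SLC7A2. ASL of the same route, named after its value was seen, rose (0.34, SE 0.07). BCKDHA of the branched-chain dehydrogenase (−0.75, SE 0.07) and KYNU of tryptophan breakdown (−0.58, SE 0.05) also fell, while ODC1, which turns ornithine into putrescine, rose (0.25, SE 0.04).

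**Figure D5:**
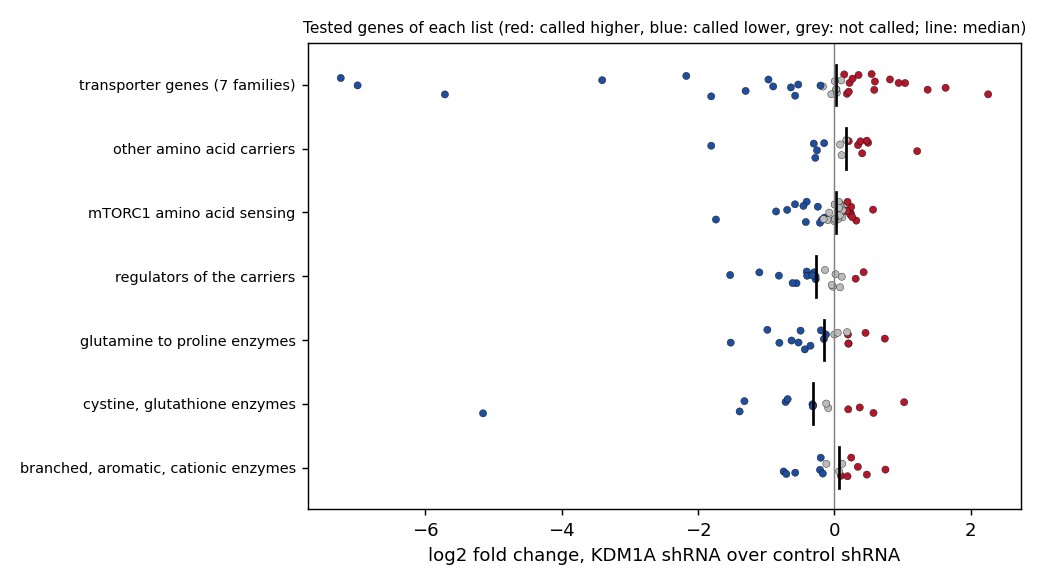
Log2 fold change of every tested gene of the transporter families and of 6 related lists, 1 point per gene, red for genes called higher, blue for lower and grey for neither, with a line at each list's median. The medians lie between −0.32 for the cystine and glutathione enzymes and 0.17 for the other carriers, and the transporters spread farther on both sides than their median of 0.03 shows.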

How the data were processed

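RNA sequencing gave 1 library per sample, 2 of MDA-MB-231 stem-like cells with a control shRNA and 2 with a KDM1A shRNA, read as single ends of 100 bases per the labels. The deposited values are read counts per gene symbol without scaling. The authors used CASAVA 1.8.2, TopHat2 2.0.8b and HTSeq with the hg19 genome, per the submitters' processing notes. The annotation and strand setting are not given in the sources used here. HTSeq's 5 summary lines were left out of library sizes; genes held 59.0% to 61.1% of each file's total, and reads outside genes 8.21% to 8.61%. Reads with several alignments (29.7% to 32.2%) were not counted.

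Testing used edgeR 4.0.16 under R 4.3.3 (TMM, filterByExpr with a minimum count of 10 and total of 15, quasi-likelihood F-test, group as the only term), with Benjamini-Hochberg adjustment over all 14012 genes tested and a threshold of 0.05. SE is the absolute log2 fold change over the square root of F. A count of 0 allows a true count of up to 3, or 0.111 to 0.126 CPM by library, for counting error alone. On simulated counts of 13816 genes with 200 changed, the test recovered 68% of 1.25-fold, 86% of 1.5-fold, 100% of 2-fold and 100% of 4-fold changes, with 7 false calls among 184. Changes were placed only in genes above a minimum mean level, so these rates do not cover the scarcest members. Far fewer genes changed in the simulation than were called in the data. Chi-square per degree of freedom between libraries of a group was 3.97 in the controls and 1.60 after knockdown, above sampling noise in both, which does not tell separate cultures from repeat preparations of 1 culture. Members were named by their symbols, with up to 5 called genes of smallest p per related list. The members and lists were chosen with earlier results of these data known. Alternatives were other scalings and filters, DESeq2 1.42.0, limma-voom (limma 3.58.1), the replicate number as a block and leaving out each library. Gene positions and exon lengths are from GENCODE 44 on GRCh37, the assembly of hg19; promoter sequences are from RefSeq on GRCh38.p14.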

Additional observations from a re-analysis of the deposited data

How the results depend on the processing

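The counts of 15 transporter genes called higher and 13 called lower held within 1.5 times under each alternative but 1. With a minimum mean of 5 CPM, which leaves 26 of the transporters to test, 7 were called lower and 13 higher. With 1 library left out, 13 to 16 were higher and 11 to 13 lower, and over all genes 2832 to 4041 higher and 3146 to 4168 lower. DESeq2 called 13 higher and 11 lower. Replicate numbers were shared by the groups, but same-numbered libraries did not deviate together (correlation 0.011 over genes), and with the replicate number as a block 15 were higher and 12 lower; of the transporters only SLC1A1 lost its call (log2 fold change −0.64, adjusted p = 0.065). Changes of sign were seen only in 4 genes that passed no threshold. With 1 library left out, SLC43A1 ranged from −0.00311 to 0.072, SLC36A4 from −0.0129 to 0.073 and SLC38A6 from −0.0348 to 0.049 on the log2 scale. With upper quartile scaling SLC6A6 stood at −0.00296 and SLC38A6 at −0.0211, and with a minimum mean of 5 CPM SLC38A6 stood at −0.0176. The cause of these shifts was not tested. Upper quartile scaling moved the median of all genes to −0.03, and higher calls made up 44.2% of all calls against 48.7%. With 1 library left in a group, that library is assumed to vary like the others. Low reads limit SLC38A3, SLC6A16, SLC6A17, SLC7A3 and SLC1A1 most.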
